A study of Mus musculus with 11 samples.

Results

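A set of 44 mouse genes of the dividing cell was followed: 19 genes that act in DNA replication, in S phase, and 25 genes that act in mitosis. They were chosen by gene name and function, with earlier results of these data known. Each of the 44 names matched 1 of the 56980 genes counted. The study sequenced ribosomal RNA-depleted total RNA of primary lung fibroblasts, the connective tissue cells that grow out of lung, to ask which transcripts change in mice that lack cGAS, the cytosolic sensor of double-stranded DNA. The groups were cGAS KO females (3 mice), cGAS KO males (3 mice), WT females (2 mice) and WT males (3 mice), with 1 library per mouse and 6 KO and 5 WT libraries in all. All cultures shared 5% O2, 5% CO2, 37 °C and F12-type medium with 15% serum. The kind of knockout allele, the strain, the age of the mice and the passage of the cells are not stated in the labels, and the extraction text of the labels speaks of tissue where the other labels speak of cultured cells. In the file headers the library names of the females and of the males are written in different styles, and whether the libraries of the sexes were prepared separately is not stated.

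Genes of this kind come on in sequence as a cell divides. In late G1, E2F transcription factors and cyclin E switch on the genes that license, open and copy the replication origins and that make deoxynucleotides. In G2, Foxm1 and the MuvB complex drive the genes of the spindle, the kinetochore and the anaphase-promoting complex. Cyclin B with Cdk1 is the kinase of mitosis. Resting fibroblasts hold little of either class of transcript, so in bulk RNA they are commonly read as a measure of how much of a culture is in cycle. In such samples, fewer cycling cells and less RNA per cycling cell cannot be told apart.

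Total counts per library were 27261958 to 48039328, and repeats took 5.31% to 10.2% of them, with the highest share in WT female 2. The 44 genes together took 0.0767% to 0.314% of the counts, and single members had 46 to 15343 counts in a library, so that all 44 passed the filter on low counts. Levels are given as CPM (counts scaled to a common library size) with TMM-scaled library sizes. Cgas, the targeted gene, had 1.61, 2.15 and 1.95 CPM in KO females, against 7.10 and 9.98 CPM in WT females. It had 2.25, 2.21 and 2.26 CPM in KO males, against 9.77, 8.57 and 5.86 CPM in WT males. Every KO library was therefore below every WT library for the targeted gene, as the labels have it. A pair of libraries stood apart for the replication and mitosis genes before any test. WT male 1 was the highest of the 11 libraries for 41 of the 44 genes, where 19.4% of all entries tested had their highest value in it. WT female 2 was the lowest for 42 of the 44, where 27.6% of all entries had their lowest value in it. The exceptions were Pcna, E2f1 and E2f2, which were highest in KO male 2, Cdt1, which was lowest in KO female 1, and Cenpa, which was lowest in WT male 3. Class medians, counts of calls and the largest differences are given with and without them.

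**Figure D1:**
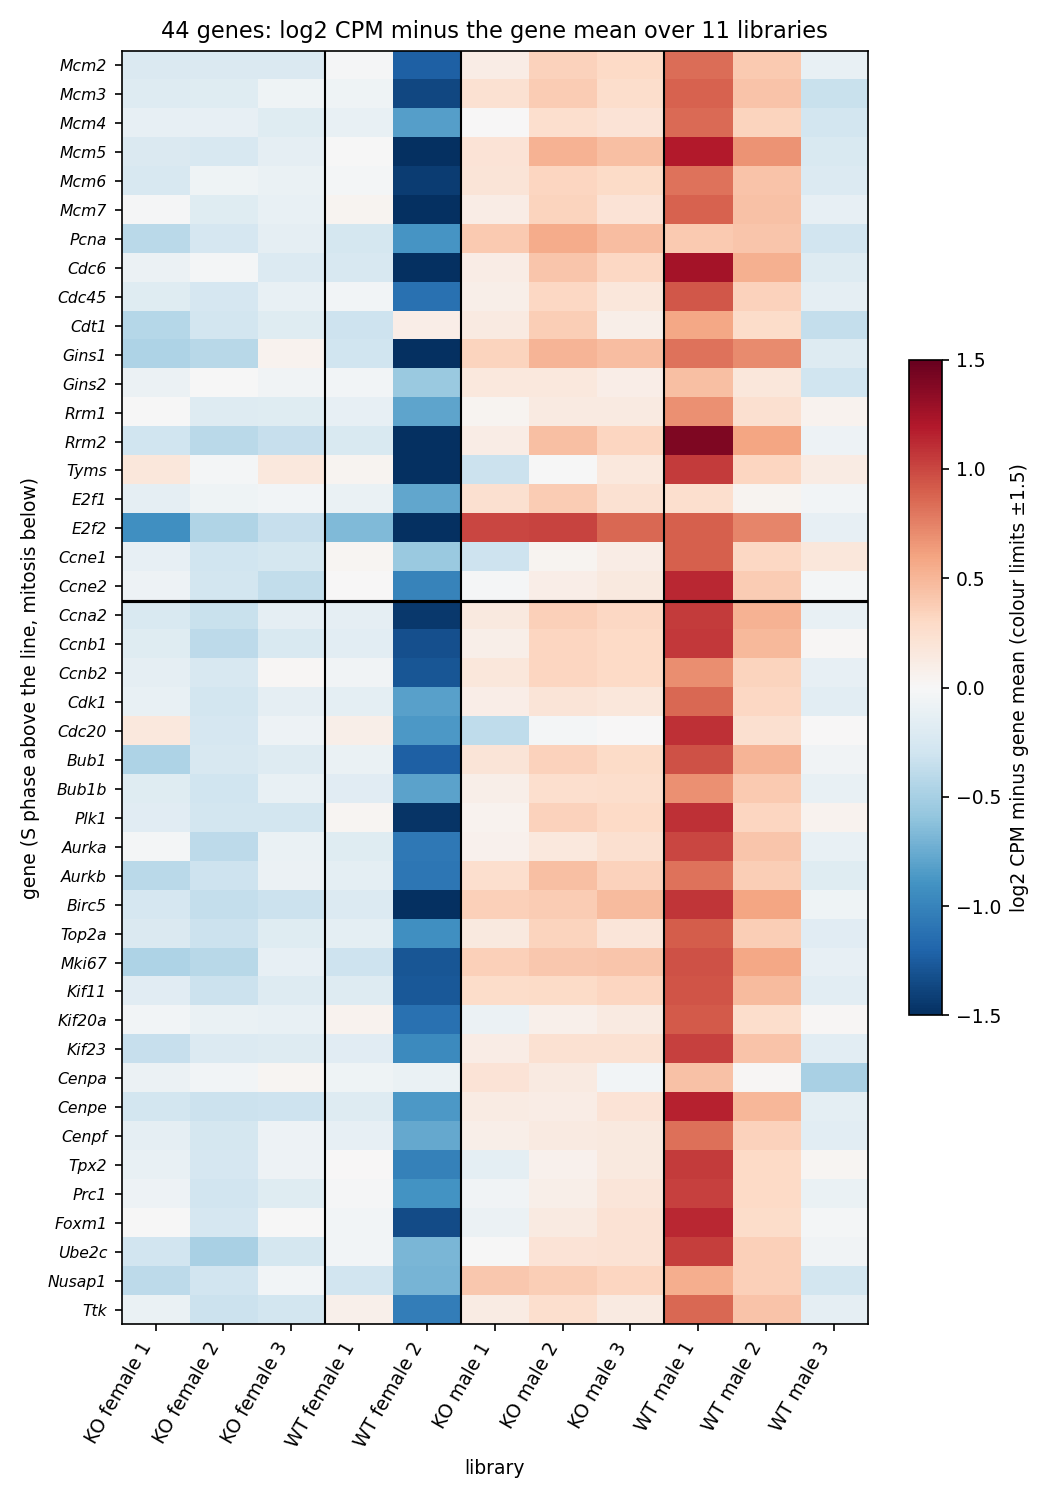
Level of each of the 44 genes (rows, S phase above the line and mitosis below) in the 11 libraries (columns), as log2 CPM minus the mean of that gene over the 11 libraries, with colours limited to ±1.5. WT male 1 is the reddest column and WT female 2 the bluest, while the 3 KO columns of each sex look alike.

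Promoters of the members show what the classes share at the sequence level. RefSeq promoter sequences on GRCm38.p6 were matched by symbol for 35 of the 44 genes, with 38 start sites. Mcm4, Gins1, Gins2, Ccne2, Ccna2, Aurkb, Kif20a, Tpx2 and Foxm1 were not matched. The 250 bases upstream of each start were searched on both strands for E2F words (TTCCCGC or TTCGCGC or TTGCCGC or TTGGCGC), for the cell cycle homology region or CHR (TTTGAA or TTTAAA), the element bound by MuvB, and for CCAAT, the word of the factor NF-Y. An E2F word stood upstream of 6 of the 15 S-phase genes searched (40.0%), 3 of the 20 mitosis genes (15.0%) and 7.89% of all 32851 promoters. A CHR word stood upstream of 13 of the 20 mitosis genes (65.0%), 5 of the 15 S-phase genes (33.3%) and 25.2% of all promoters. CCAAT stood upstream of 18 of the 20 mitosis genes (90.0%), 10 of the 15 S-phase genes (66.7%) and 33.8% of all promoters. The shares of members count each gene once, while that of all promoters counts each start. Per start, the S-phase and mitosis shares were 41.2% and 14.3% for E2F words and 29.4% and 61.9% for CHR words. For CCAAT they were 70.6% and 90.5%. These are matches of short words and do not show that a factor binds. The S-phase members with the most E2F words and the mitosis members with the most CHR words are printed 5′ to 3′ on the strand of the gene. Capitals mark the E2F words in Mcm5 and Mcm6, which encode subunits of the MCM helicase, and the CHR words in Cdk1, Mki67, Plk1 and Top2a. Left in small letters are 1 CHR word in Mcm5, 2 E2F words in Cdk1 and 1 E2F word in Mki67.
Mcm5 promoter (chr8:75109259-75109508, + strand): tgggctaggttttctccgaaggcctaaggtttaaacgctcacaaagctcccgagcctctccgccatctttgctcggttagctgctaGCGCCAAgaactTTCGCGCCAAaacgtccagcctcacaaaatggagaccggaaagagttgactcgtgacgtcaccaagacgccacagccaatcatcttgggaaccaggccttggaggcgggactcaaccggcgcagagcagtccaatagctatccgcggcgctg
Mcm6 promoter (chr1:128359706-128359955, - strand): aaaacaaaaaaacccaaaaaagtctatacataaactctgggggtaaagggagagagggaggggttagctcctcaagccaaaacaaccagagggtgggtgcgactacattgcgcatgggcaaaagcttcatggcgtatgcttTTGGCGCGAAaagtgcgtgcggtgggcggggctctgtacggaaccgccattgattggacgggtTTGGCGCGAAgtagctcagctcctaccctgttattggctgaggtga
Cdk1 promoter (chr10:69352913-69353162, - strand): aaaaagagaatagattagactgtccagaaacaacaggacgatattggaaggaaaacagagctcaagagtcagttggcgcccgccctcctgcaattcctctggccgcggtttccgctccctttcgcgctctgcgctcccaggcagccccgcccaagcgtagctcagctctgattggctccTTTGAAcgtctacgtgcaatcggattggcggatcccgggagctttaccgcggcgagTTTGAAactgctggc
Mki67 promoter (chr7:135716380-135716629, - strand): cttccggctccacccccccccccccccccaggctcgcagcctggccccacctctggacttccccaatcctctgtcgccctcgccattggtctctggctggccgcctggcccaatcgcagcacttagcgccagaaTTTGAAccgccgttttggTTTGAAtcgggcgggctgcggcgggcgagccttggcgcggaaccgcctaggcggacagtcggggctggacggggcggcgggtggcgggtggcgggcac
Plk1 promoter (chr7:122159185-122159434, + strand): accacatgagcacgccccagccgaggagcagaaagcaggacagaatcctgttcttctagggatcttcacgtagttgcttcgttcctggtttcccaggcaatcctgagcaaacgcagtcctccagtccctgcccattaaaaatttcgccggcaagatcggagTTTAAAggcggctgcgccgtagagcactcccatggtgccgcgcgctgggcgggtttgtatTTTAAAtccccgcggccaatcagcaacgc
Top2a promoter (chr11:99024190-99024439, - strand): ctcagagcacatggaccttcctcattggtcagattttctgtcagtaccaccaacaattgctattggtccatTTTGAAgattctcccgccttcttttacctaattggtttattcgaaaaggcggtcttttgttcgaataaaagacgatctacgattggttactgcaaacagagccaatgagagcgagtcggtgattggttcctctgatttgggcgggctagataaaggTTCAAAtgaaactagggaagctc

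Words on opposite strands can overlap, and did so in the capital runs of the helicase promoters. The Mcm5 promoter held 3 E2F words, of which 2 did not overlap, and the Mcm6 promoter held 4, of which 2 did not overlap. Each of the 4 mitosis promoters held 2 CHR words, beside 3 CCAAT words in Cdk1, 3 in Mki67, 1 in Plk1 and 6 in Top2a. The last bases of each promoter sequence, which lie a little past the start, were found in GENCODE transcripts of the gene for 34 of the 38 starts. Those of Mcm5 and Mcm6 were not among them, so the position of these starts is less certain.

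No replication or mitosis gene passed the test between KO and WT when both sexes were fitted together. None of the 44 genes passed an adjusted p of 0.05 in edgeR's quasi-likelihood test with Benjamini-Hochberg adjustment over 22298 entries, where 0.00448% of all entries passed, namely Cgas, which was lower. No entry passed in the higher direction (0%) and 0.00448% in the lower. At an unadjusted p under 0.05 stood 1 of the 44, E2f1, against 17.2% of all entries, and DESeq2 called 0 of the 44, where it called 3.88% of entries. The median log2 fold change, KO minus WT, was 0.06 for the S-phase genes and -0.03 for the mitosis genes, against -0.02 for all entries. It was positive in 12 of the 19 S-phase genes and 9 of the 25 mitosis genes, against 47.5% of all entries. No member had KO libraries clear of all WT libraries in either direction, where 0.789% of entries did so higher and 0.426% lower. Standard errors of the log2 fold changes ran from 0.11 to 0.35, and E2f1, at more than 2 SE from 0, did not pass either. Outside the 44 genes, the keratin gene Krt19 had -0.60 (SE 0.17, edgeR adjusted p = 0.179) in this contrast and did not pass. In this edgeR fit such differences were thus not called, so the lack of calls does not show that the 44 genes were unchanged. Without WT female 2 the median was -0.19 for S phase and -0.25 for mitosis, and without WT male 1 it was 0.19 and 0.15. The sign of both medians thus turned with single WT libraries.

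**Figure D2:**
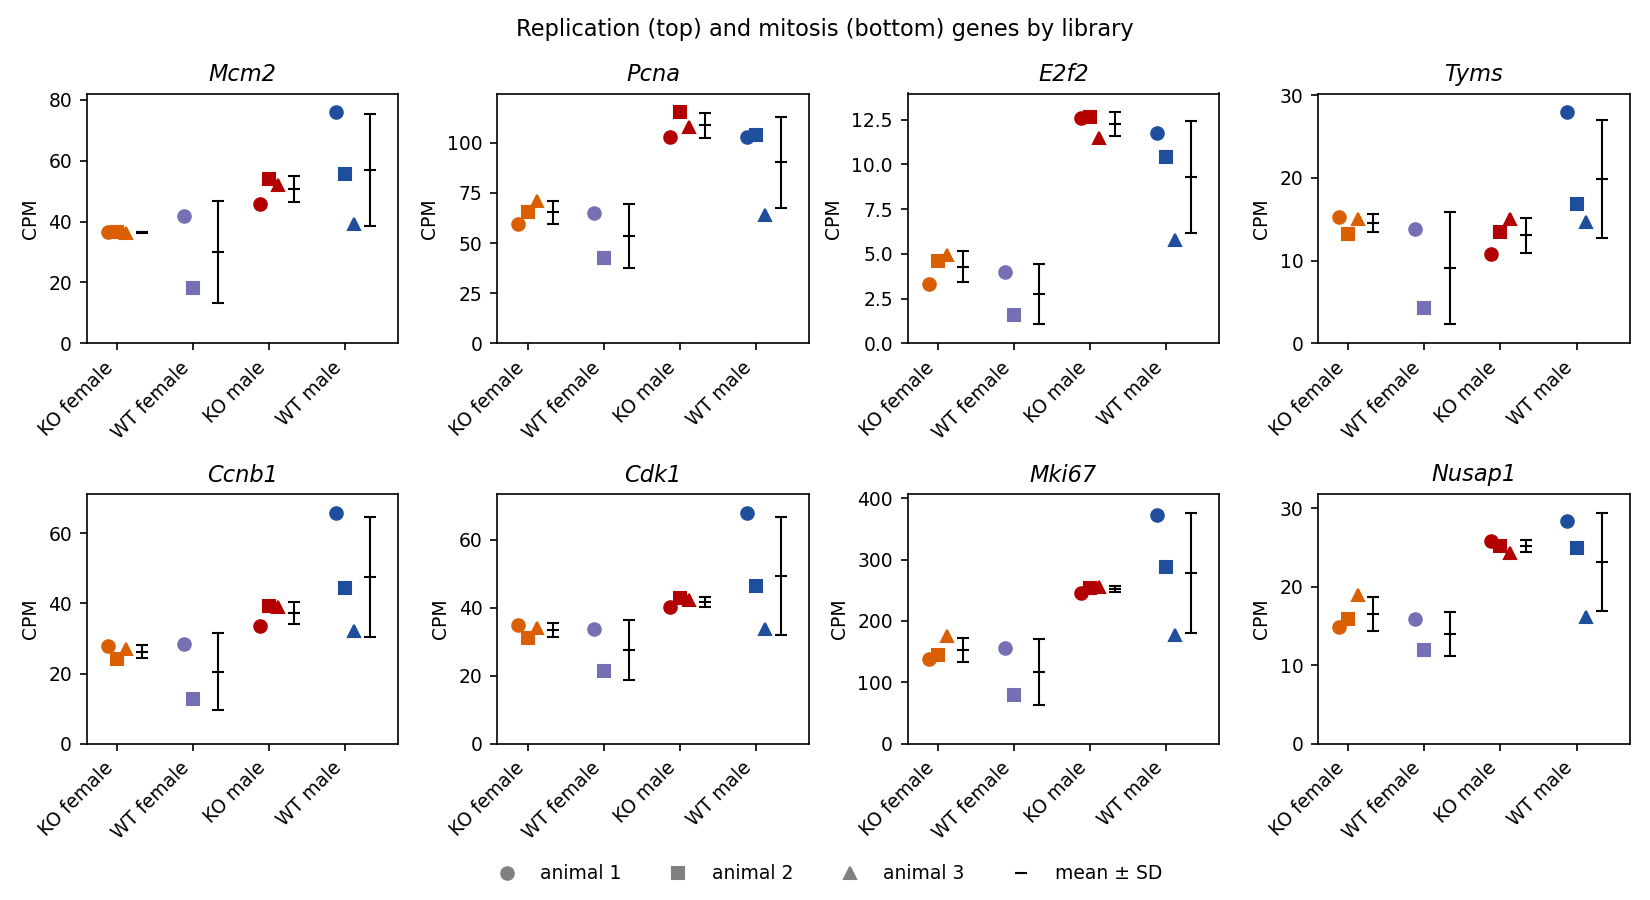
CPM (vertical axis, from 0) of 4 S-phase genes in the top row and 4 mitosis genes in the bottom row, with 1 point per animal and bars for the mean ± SD of each group. KO points of a sex mostly lie close together, and WT points of a sex are more widely spread. WT males lie on both sides of the KO males for Mcm2, Ccnb1, Cdk1, Mki67 and Nusap1, but not for Pcna, E2f2 or Tyms. In females the WT female 2 point lies below the KO points of each gene shown. Male points of E2f2 and Pcna lie mostly above female ones.

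Among the genes that control entry into S phase, E2f1 and E2f2 encode transcription factors that activate the replication genes, and Ccne1 and Ccne2 encode the E-type cyclins. E2f1 had 26.6, 28.1 and 28.4 CPM in KO females, against 27.4 and 17.1 CPM in WT females. In males it had 34.7, 38.2 and 34.5 CPM in KO, against 35.0, 30.1 and 28.5 CPM in WT. The groups overlapped in both sexes, and the log2 fold change over both sexes of 0.25 (SE 0.11) did not pass (edgeR adjusted p = 0.281). E2f2 had 3.33, 4.61 and 4.94 CPM in KO females, against 3.96 and 1.57 CPM in WT females. It had 12.6, 12.7 and 11.5 CPM in KO males, against 11.7, 10.4 and 5.76 CPM in WT males. Every male library was above every female library for E2f2, while KO and WT overlapped within each sex (log2 fold change 0.50, SE 0.24, edgeR adjusted p = 0.309). Of the E-type cyclins, Ccne1 had 9.23, 11.8 and 12.3 CPM in KO males, against 21.3, 14.2 and 12.8 CPM in WT males, with no overlap. Its log2 fold change in males was -0.53 (SE 0.21, edgeR adjusted p = 0.170), and -0.28 without WT male 1, and in females it was 0.01 (SE 0.24). Ccne2 averaged 12.6 ± 0.70 CPM in KO males and 17.8 ± 7.51 CPM in WT males (SD, n = 3 each). It averaged 10.1 ± 1.06 CPM in KO females (SD, n = 3) and 8.94 ± 4.21 CPM in WT females (SD, n = 2).

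Origin licensing loads the MCM helicase with the help of Cdc6 and Cdt1, and all 6 subunits of the MCM ring were measured. Mcm2 had 36.5, 36.5 and 36.3 CPM in KO females, against 41.9 and 18.1 CPM in WT females. It had 45.9, 54.0 and 52.1 CPM in KO males, against 76.0, 55.8 and 39.2 CPM in WT males. In both sexes the KO values lay between the highest and the lowest WT value, and the log2 fold change over both sexes was 0.03 (SE 0.22). The other subunits, Mcm3, Mcm4, Mcm5, Mcm6 and Mcm7, had log2 fold changes over both sexes of 0.12, 0.00, 0.08, 0.11 and 0.06, each smaller than its SE of 0.20 to 0.35. Mcm5 had the widest range of all 44 genes, 10.54-fold between the highest and the lowest library. It had 31.5, 31.0 and 33.4 CPM in KO females, against 36.4 and 7.90 CPM in WT females, and the low value was that of WT female 2. In males it had 42.4, 52.5 and 49.9 CPM in KO, against 83.2, 58.6 and 31.4 CPM in WT. Cdc6, the loader of the helicase, had 6.41, 6.72 and 5.95 CPM in KO females, against 5.77 and 1.88 CPM in WT females. This was the only member with KO females clear of WT females in either direction, where 9.27% of entries were clear higher and 9.73% lower, and its log2 fold change of 0.75 (SE 0.45) did not pass (edgeR adjusted p = 0.692). Cdt1, the other loading factor, had 20.6, 22.9 and 24.4 CPM in KO females, against 22.4 and 29.8 CPM in WT females, so that WT female 2 was the highest of the females. In males it had 30.5, 35.8 and 29.5 CPM in KO, against 41.6, 33.6 and 21.7 CPM in WT, with WT male 1 above and WT male 3 below all KO males.

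Cdc45 and the GINS subunits Gins1 and Gins2 turn the loaded MCM ring into the active helicase. Their log2 fold changes over both sexes were -0.01 (SE 0.22), 0.17 (SE 0.25) and 0.10 (SE 0.13). Pcna encodes the sliding clamp of the replicative polymerases and had the highest mean level per length of the 44 genes (34.1 CPM per kilobase of exon). It had 59.3, 65.4 and 71.1 CPM in KO females, against 65.0 and 42.3 CPM in WT females. It had 103, 115 and 108 CPM in KO males, against 103, 104 and 64.2 CPM in WT males. KO and WT overlapped in each sex, and the log2 fold change was 0.27 in males (SE 0.20) and 0.28 in females (SE 0.22), 0.27 over both (SE 0.14, edgeR adjusted p = 0.337). Pcna, E2f1 and E2f2 were the 3 members that WT male 1 did not lead, and with Gins2, Cenpa and Nusap1 they made up the 6 members whose log2 fold change in males was not negative. Among the genes of deoxynucleotide supply, Rrm1 and Rrm2 encode the subunits of ribonucleotide reductase and Tyms encodes thymidylate synthase. Tyms had 15.2, 13.3 and 15.1 CPM in KO females, against 13.9 and 4.29 CPM in WT females. It had 10.8, 13.4 and 15.0 CPM in KO males, against 28.0, 16.8 and 14.7 CPM in WT males. Only WT female 2 was far below the KO females, and WT male 1 was far above the KO males. The log2 fold change of Tyms was 0.68 in females and 0.06 without WT female 2, and it was -0.60 in males and -0.27 without WT male 1. Rrm1 had 130.3, 113.6 and 114.6 CPM in KO females, against 120.1 and 75.1 CPM in WT females. It had 133.8, 143.3 and 143.6 CPM in KO males, against 210.0, 154.3 and 135.2 CPM in WT males, again with overlap in both sexes. Rrm2 ran over a 7.66-fold range between libraries, with a log2 fold change over both sexes of -0.10 (SE 0.29).

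Among the drivers of mitosis, Cdk1 encodes the mitotic kinase, Ccnb1, Ccnb2 and Ccna2 its cyclins, and Foxm1 the transcription factor that activates many of the other members. Ccnb1 had 27.8, 24.12 and 26.98 CPM in KO females, against 28.3 and 12.7 CPM in WT females. It had 33.5, 39.4 and 38.9 CPM in KO males, against 65.9, 44.5 and 32.1 CPM in WT males. Cdk1 had 34.8, 31.1 and 34.1 CPM in KO females, against 33.8 and 21.4 CPM in WT females, and 40.1, 42.8 and 42.2 CPM in KO males, against 67.9, 46.4 and 33.7 CPM in WT males. For both genes WT female 1 lay beside the KO females, WT female 2 lay below them, and the 3 WT males lay on both sides of the KO males. Log2 fold changes over both sexes were -0.04 for Ccnb1 (SE 0.24), -0.02 for Cdk1 (SE 0.18), 0.02 for Ccna2 (SE 0.25), 0.14 for Ccnb2 (SE 0.21) and -0.06 for Foxm1 (SE 0.28). Mki67 encodes the Ki-67 protein that coats mitotic chromosomes, and Top2a the topoisomerase that untangles them. Mki67 had 138.7, 143.8 and 175.9 CPM in KO females, against 155.3 and 78.8 CPM in WT females. It had 246, 254 and 256 CPM in KO males, against 372, 287 and 177 CPM in WT males. The KO males lay close together between the middle and the lowest WT male. Top2a had 119.4, 111.7 and 122.4 CPM in KO females, against 125.9 and 73.6 CPM in WT females. It had 154.7, 175.8 and 158.2 CPM in KO males, against 262, 181 and 124 CPM in WT males, and the log2 fold change over both sexes was -0.01 (SE 0.19).

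The kinases and checkpoint proteins of mitosis were measured through Bub1, Bub1b and Ttk, which hold back anaphase, Plk1, Aurka and Aurkb, which build and correct the spindle, and Birc5, the survivin partner of Aurkb. Their log2 fold changes over both sexes lay between -0.09 (Ttk, SE 0.21) and 0.10 (Aurkb, SE 0.19). Birc5 averaged 18.6 ± 0.82 CPM in KO males and 21.3 ± 8.05 CPM in WT males (SD, n = 3 each). Plk1 averaged 30.6 ± 3.2 CPM in KO males and 38.4 ± 15.3 CPM in WT males (SD, n = 3 each), so that the means differed by less than the WT spread. Centromere and kinetochore genes were Cenpa, the centromeric histone, Cenpe, a kinetochore motor, and Cenpf, a large kinetochore protein. Cenpa varied least of the 44 genes, 1.90-fold between its highest and lowest library, and had 27.8, 28.6 and 30.01 CPM in KO females, against 28.2 and 27.5 CPM in WT females. Cenpe averaged 33.6 ± 1.16 CPM in KO males and 46.1 ± 20.2 CPM in WT males (SD, n = 3 each), with a log2 fold change in males of -0.45 (SE 0.27, edgeR adjusted p = 0.351) and of -0.07 without WT male 1.

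Spindle and midzone genes include the motors Kif11, Kif20a and Kif23, the bundling protein Prc1, and Tpx2 and Nusap1, which organise spindle microtubules. Tpx2 had 43.2, 39.4 and 44.5 CPM in KO females, against 46.9 and 23.2 CPM in WT females. It had 42.1, 48.8 and 52.0 CPM in KO males, against 96.7, 57.8 and 47.9 CPM in WT males. Nusap1 had 14.8, 15.9 and 18.97 CPM in KO females, against 15.9 and 12.0 CPM in WT females, and 25.9, 25.2 and 24.3 CPM in KO males, against 28.4, 24.9 and 16.2 CPM in WT males. KO and WT overlapped in both sexes for each of these genes. For Nusap1 the log2 fold change over both sexes of 0.17 (SE 0.14, edgeR adjusted p = 0.539) had the smallest p of the mitosis genes. Kif11, Kif20a, Kif23 and Prc1 had log2 fold changes over both sexes of 0.07, -0.09, -0.07 and -0.14, each below its SE of 0.21 to 0.23. Cdc20 activates the anaphase-promoting complex, and Ube2c is the ubiquitin-conjugating enzyme that works with it. Cdc20 had 27.8, 20.9 and 23.6 CPM in KO females, against 26.6 and 13.7 CPM in WT females. It had 19.1, 24.4 and 25.1 CPM in KO males, against 53.3, 29.4 and 25.1 CPM in WT males. Here the highest KO male lay level with the lowest WT male, and the log2 fold change in males was -0.65 (SE 0.30, edgeR adjusted p = 0.230), and -0.25 without WT male 1. Ube2c had 21.4, 18.7 and 21.6 CPM in KO females, against 25.2 and 16.3 CPM in WT females, and 26.0, 30.2 and 30.2 CPM in KO males, against 53.6, 33.5 and 25.1 CPM in WT males, with overlap in both.

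Within males, most members were lower in KO than in WT on average, and none passed the test. The median log2 fold change was -0.22 for S phase and -0.27 for mitosis, against -0.02 for all entries, and it was negative in 15 of 19 and 23 of 25 genes, while 47.9% of all entries were positive. Of the 44 genes, 0 passed an adjusted p of 0.05 in edgeR, where 2% of 22960 entries did (1.3% higher and 0.697% lower), and DESeq2 called 0 of the 44, where it called 11.2% of entries. Ccne1 stood at an unadjusted p under 0.05, against 22.2% of all entries, and it was the 1 member with KO males clear below WT males, where 13.3% of entries were clear lower and 17.6% clear higher. The male median rested on single WT males: without WT male 3 it was -0.39 for S phase and -0.49 for mitosis, and without WT male 1 it was 0.10 and 0.03, and the fold change was positive in 15 of 19 and 15 of 25 genes. WT male 1 lay above all KO males in 41 of the 44 genes and WT male 2 in 36, whereas WT male 3 lay below all KO males in 36. For 33 genes the 3 KO males fell inside the range of the WT males. These positions were not counted over all entries, so whether they are particular to the 44 genes was not tested. The count of 459 entries behind the 2% was itself unsteady. Leaving out KO animals gave 0 calls for female 2, female 3, male 1 or male 2, 17 for female 1 and 1091 for male 3. Leaving out WT animals gave 0 for male 1, 1 for male 3, 1012 for male 2, 2065 for female 1 and 1765 for female 2.

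Within females the average difference had the opposite sign. The median log2 fold change was 0.32 for S phase and 0.27 for mitosis, against 0.01 for all entries, and it was positive in 18 of 19 and 24 of 25 genes, against 51.5% of all entries. The exceptions were Cdt1 at -0.21 (SE 0.23) and Ube2c at -0.01 (SE 0.28). In edgeR 0 of the 44 passed, where 0.00436% of entries passed, 0% in the higher direction and 0.00436% in the lower. None of the 44 stood at an unadjusted p under 0.05, against 6.66% of all entries, and DESeq2 called 0 of the 44 and 0.0261% of entries. The female median rested on WT female 2: without it the medians were -0.03 and -0.10, and 7 of 19 and 3 of 25 genes were positive. Without WT female 1, which leaves WT female 2 as the lone WT female, assumed to vary like the other groups, the medians were 1.02 and 0.84 and edgeR called 14 of the 44, all higher, where it called 8.98% of entries higher and 6.4% lower. The 14 were Mcm2, Mcm3, Mcm5, Mcm6, Mcm7, Cdc6, Tyms, E2f1, E2f2, Ccna2, Ccnb2, Plk1, Birc5 and Kif20a. WT female 2 lay below all KO females in 43 of the 44 genes, whereas WT female 1 lay inside the KO female range in 21 and above it in 22. The share of all entries in these positions was not counted either.

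**Figure D3:**
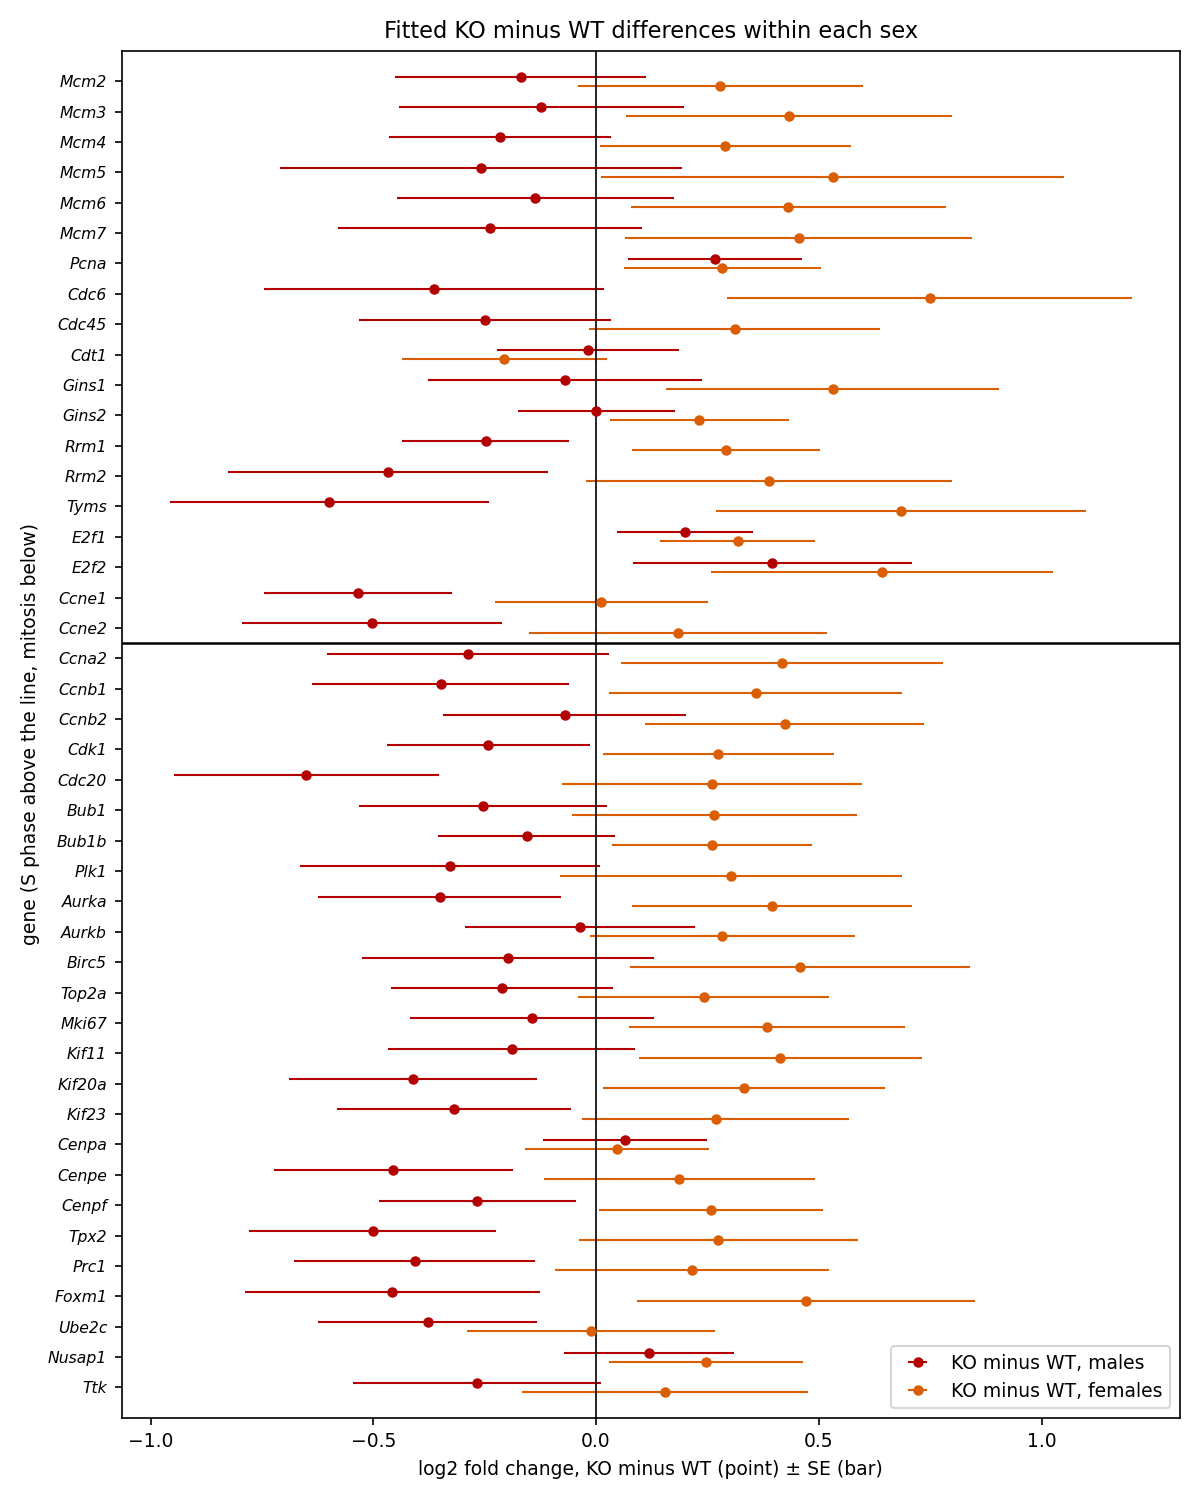
Fitted log2 fold change of each of the 44 genes, KO minus WT (horizontal axis), in males and in females, with bars of 1 SE. Most male points lie left of 0 and most female points right of it, with bars that mostly reach close to 0 or cross it.

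The opposite signs were tested directly as the difference between the male and the female contrast. Its median was -0.56 for S phase and -0.59 for mitosis on the log2 scale, against -0.01 for all entries, and it was negative in 18 of 19 and 24 of 25 genes, while 48.7% of all entries were positive. None of the 44 passed in edgeR, where 0% of entries passed, and 1 (Tyms) stood at an unadjusted p under 0.05, against 13.1% of all entries. DESeq2 called 0 of the 44, where it called 1.14% of entries. The largest differences were -1.28 for Tyms (SE 0.55, edgeR adjusted p = 0.357), -1.11 for Cdc6 (SE 0.59, edgeR adjusted p = 0.445), -0.93 for Foxm1 (SE 0.50, edgeR adjusted p = 0.453) and -0.91 for Cdc20 (SE 0.45, edgeR adjusted p = 0.417). Rrm1 had -0.54 (SE 0.28, edgeR adjusted p = 0.439) and Tpx2 -0.78 (SE 0.42, edgeR adjusted p = 0.453). Each of these 6 shrank without WT female 2, to -0.69 for Tyms, -0.53 for Cdc6, -0.44 for Foxm1, -0.53 for Cdc20, -0.26 for Rrm1 and -0.38 for Tpx2. Without WT male 1 they were -0.95, -0.68, -0.52, -0.51, -0.34 and -0.43 in the same order, and without WT female 1 they were -2.37, -2.14, -1.74, -1.48, -0.93 and -1.39. Without WT female 2 the medians were -0.12 and -0.19, and without WT male 1 they were -0.29 and -0.26. Without WT female 1 they were -1.20 and -1.14, and edgeR called 13 of the 44, all negative, where it called 5.88% of entries negative and 4.22% positive. A difference of the genotype effect between the sexes was therefore not shown for any of these genes with all 11 libraries.

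The spread between animals of these genes was wider in WT than in KO. The SD of log2 CPM among animals of 1 sex, pooled over the sexes, had a median over the 44 genes of 0.108 in KO and 0.607 in WT, against 0.169 in KO and 0.283 in WT for all entries. It was larger in WT than in KO for 44 of the 44 genes, where this held for 78% of all entries. In males alone it was larger in WT for 44 of 44 genes, against 62.9% of entries, and in females for 43 of 44, against 72.1% of entries, with only 2 WT females. The exception was Cenpa. With only WT males 2 and 3, the SD was larger in WT than in KO males for 40 genes (48% of entries). With WT males 1 and 2 this held for 42 (52.7% of entries), and with WT males 1 and 3 for 44 (58.1% of entries). WT male 1 was above WT male 2, and WT male 2 above WT male 3, in 43 of the 44 genes. The counts for pairs thus follow 1 shared order of the WT males and are not separate support. Mcm5 had an SD of 0.121 in KO and 1.07 in WT, Birc5 0.058 and 0.755, and Kif11 0.062 and 0.625, whereas Cdt1 (0.136 and 0.424) and E2f1 (0.068 and 0.303) were among the steadier members in WT. No p is given, because the members were chosen with earlier results known and genes within a library move together.

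**Figure D4:**
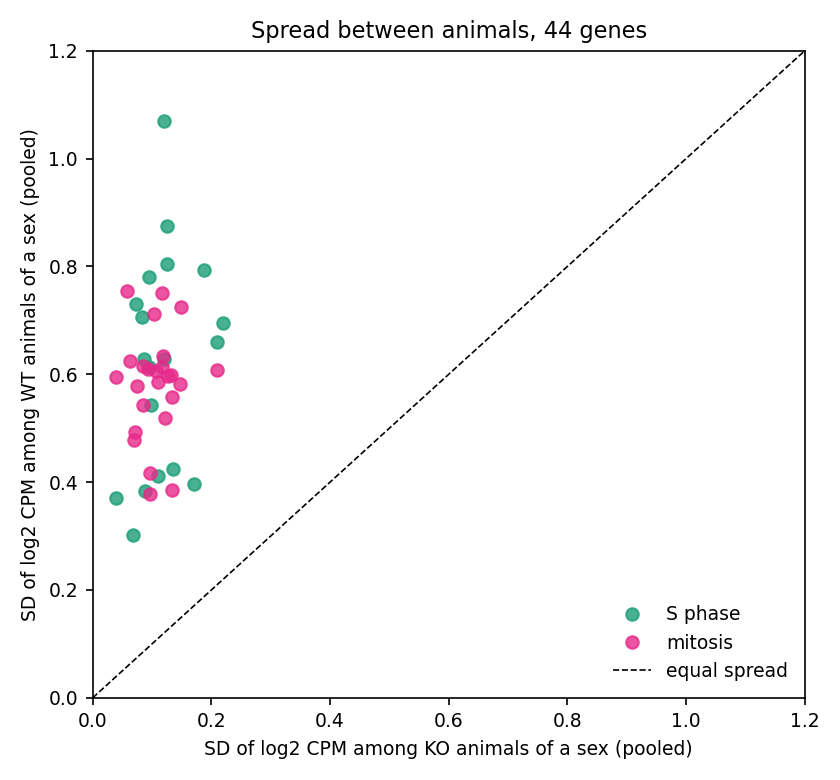
SD of log2 CPM between animals of 1 sex, pooled over the sexes, for each of the 44 genes in KO (horizontal axis) and WT (vertical axis), with S-phase and mitosis genes in separate colours and the line of equal spread. All points lie above the line, at 0.0392 to 0.220 in KO and 0.303 to 1.07 in WT.

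The S-phase and mitosis classes moved together from library to library. The mean log2 CPM of the 19 S-phase genes was 4.35, 4.36 and 4.42 in KO females, against 4.44 and 3.37 in WT females. It was 4.72, 4.91 and 4.84 in KO males, against 5.42, 4.97 and 4.43 in WT males. For the 25 mitosis genes it was 4.74, 4.64 and 4.78 in KO females, against 4.82 and 3.89 in WT females, and 5.03, 5.16 and 5.16 in KO males, against 5.85, 5.31 and 4.82 in WT males. Both classes thus placed WT female 2 lowest and WT male 1 highest. The difference between the classes, S phase minus mitosis, stayed between -0.52 (WT female 2) and -0.25 (KO male 2) in all 11 libraries, while the class levels themselves ran from 3.37 to 5.42 and from 3.89 to 5.85. The pooled SD of the class level within groups was 0.393 for S phase and 0.377 for mitosis. The 44 genes share libraries and depth, so their common movement describes these 11 cultures and no p is attached to it.

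**Figure D5:**
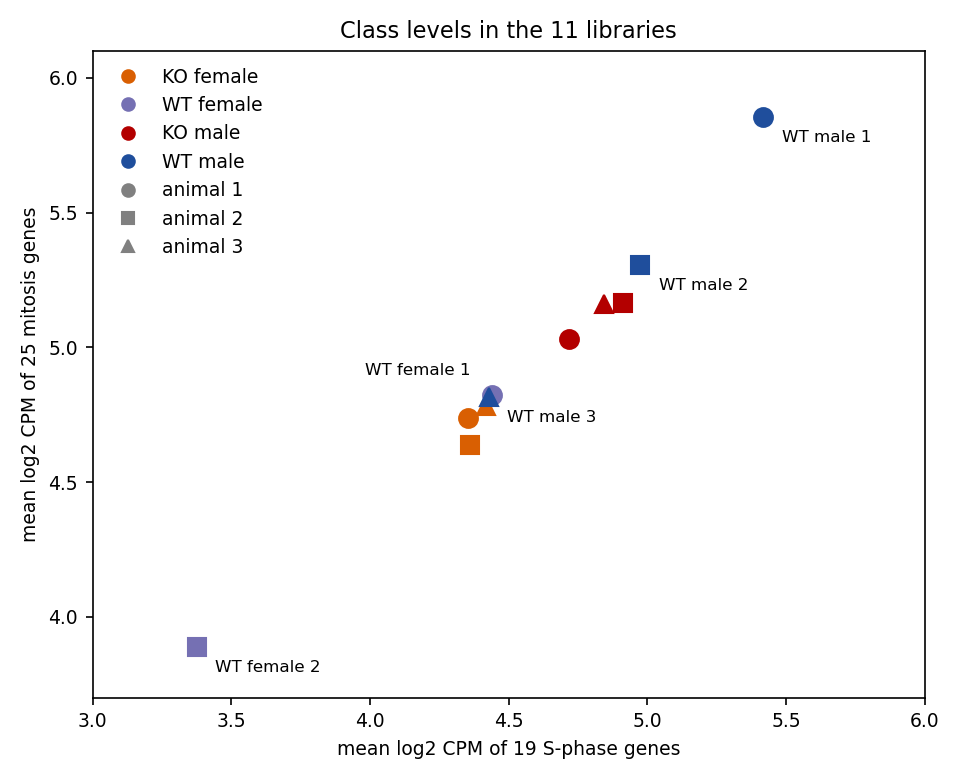
Mean log2 CPM of the 25 mitosis genes (vertical axis) against that of the 19 S-phase genes (horizontal axis) in each of the 11 libraries, coloured by group and shaped by animal number. Libraries fall along 1 diagonal with WT female 2 at the low end and WT male 1 at the high end, and the KO libraries lie between, males above females.

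Between the sexes, some of these genes did pass the test. All 44 genes were higher in males than in females in the fit that held genotype fixed, with a median log2 difference, male minus female, of 0.63 for S phase and 0.65 for mitosis, against 0.00 for all entries, of which 49.5% were positive. In edgeR 4 of the 44 passed an adjusted p of 0.05, all higher in males, where 1.83% of entries passed higher, 2.46% lower and 4.29% in either direction. At an unadjusted p under 0.05 stood 37 of the 44, against 27% of all entries. E2f2 had a log2 difference of 1.62 (SE 0.24, adjusted p = 0.0112 in edgeR), with 6 of 6 male libraries above 5 of 5 female libraries. Pcna was higher by 0.74 (SE 0.14, edgeR adjusted p = 0.0278), Mki67 by 0.95 (SE 0.22, edgeR adjusted p = 0.0427) and Nusap1 by 0.66 (SE 0.14, edgeR adjusted p = 0.0376). Male and female libraries did not overlap, with males higher, in 13 of the 44 genes, 4 of S phase and 9 of mitosis, where 2.67% of entries were clear higher and 2.4% clear lower. Among KO animals alone, all 3 males lay above all 3 females in 37 of the 44 genes, against 19.4% of entries. The exceptions were Tyms, Ccne1, Cdc20, Kif20a, Cenpa, Tpx2 and Foxm1. DESeq2 called 25 of the 44, all higher in males, where it called 6.13% of entries higher and 6.63% lower. With no filter on low counts edgeR called 15, all higher, where it called 2.59% of entries, 1.32% higher and 1.27% lower. The number of calls in edgeR moved with single libraries. Only E2f2 was left when any 1 of the KO females, KO male 2, KO male 3 or WT male 2 was taken out. With KO male 1 or WT female 2 out, 2 genes, E2f2 and Pcna, were left. The share of all entries called is not given here for the KO libraries or WT male 2. With each library left out, the entries called ran from 104 to 3340. The number of members called was 4 without WT male 1, 12 without WT female 1 and 17 without WT male 3. All were higher, where 1.19%, 6.57% and 3.68% of entries were called higher. Without WT female 2, where 0.871% of entries were called higher, the log2 differences were 1.42 for E2f2, 0.65 for Pcna, 0.76 for Mki67 and 0.58 for Nusap1. Without WT female 2 the median differences were 0.41 and 0.49, and without WT male 1 they were 0.50 and 0.50, with all 44 positive in each. The style of the library names in the file headers coincides with sex, and its part in the result cannot be told apart from that of sex.

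Further genes of the same processes were read from the same fits. Of 37 other replication genes, 0 passed between KO and WT over both sexes, in males or in females, and 21, 8 and 33 of them were positive in these contrasts. Of 45 other mitosis genes, 0 passed, and 18, 7 and 40 were positive. Over all entries 0.00448%, 2% and 0.00436% passed in these contrasts, and 47.5%, 47.9% and 51.5% were positive. By the smallest p over both sexes, the replication genes were led by Rfc2, a subunit of the clamp loader, with a log2 fold change of 0.25 (SE 0.13), Orc2, an origin recognition subunit, with -0.21 (SE 0.12), and Rpa1, which coats single-stranded DNA, with -0.17 (SE 0.13). The mitosis genes were led by Bora, an activator of Aurka, with -0.35 (SE 0.14), Ckap2 with -0.33 (SE 0.15) and Gtse1 with -0.30 (SE 0.15). None of these passed in edgeR with Benjamini-Hochberg adjustment, and their adjusted p-values were 0.349, 0.368, 0.533, 0.238, 0.298 and 0.328 in the order named. Between males and females 36 of the 37 and 44 of the 45 were positive, against 49.5% of all entries. Of these, 4 (Gmnn, Chaf1b, Tk1 and Clspn) and 7 (Mad2l1, Spc25, Cdca3, Incenp, Ncaph, Pbk and Nek2) were called higher in males, where 1.83% of entries were. Of 35 genes that control the cycle, 0 passed between KO and WT, with 20, 15 and 23 positive over both sexes, in males and in females. Between males and females 27 of the 35 were positive, against 49.5% of entries, and 2 were called higher in males, against 1.83% of entries. These were Cdk6, a kinase of G1, by 0.41 (SE 0.07, edgeR adjusted p = 0.0143) and E2f8, a repressor of the E2F family, by 1.09 (SE 0.28, edgeR adjusted p = 0.0498). Cdkn1a, the main inhibitor of cyclin-dependent kinases, had 171, 161 and 168 CPM in KO females, against 172 and 287 CPM in WT females. It had 168, 186 and 208 CPM in KO males, against 214, 205 and 235 CPM in WT males. Its highest library was WT female 2, the library with the least of the replication and mitosis transcripts, and its log2 fold change over both sexes was -0.33 (SE 0.12, edgeR adjusted p = 0.221). Cdkn2d, the INK4-family inhibitor of D-type cyclin kinases, had 0.23 (SE 0.11, edgeR adjusted p = 0.300) and E2f3 had -0.18 (SE 0.09, edgeR adjusted p = 0.326).

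The cultures carried the markers of their labelled cell type, with other cells beside them. All 14 fibroblast markers were detected, with a summed level of 38597 to 52777 CPM in KO libraries and 41719 to 56614 CPM in WT libraries. Leukocyte markers summed to 8963 to 14819 CPM in KO males, against 6178 to 8234 CPM in WT males, and to 8988 to 9916 CPM in KO females, against 6619 to 9261 CPM in WT females. Of these 20 markers, Ly6g was at 0 in every library and 18 were tested within males, of which 5 passed in edgeR, all higher in KO, where 1.3% of entries passed higher. Their median log2 fold change in males was 0.79, and without WT male 1 it was also 0.79 while 0 of them, as 0% of entries, passed. Epithelial markers summed to 11.7 to 14.7 CPM in KO males, against 23.0 to 60.8 CPM in WT males, with no overlap, and to 14.9 to 37.8 CPM in KO females, against 25.1 to 26.6 CPM in WT females. In males 10 of the 10 epithelial markers tested had a negative log2 fold change, with a median of -1.35, and Krt19, a keratin, passed with -0.91 (SE 0.19, edgeR adjusted p = 0.0475), where 0.697% of entries passed lower. Endothelial markers summed to 67.8 to 117 CPM in KO males, against 90.8 to 128 CPM in WT males, and to 103 to 130 CPM in KO females, against 93.6 to 96.9 CPM in WT females. In males 12 of the 14 endothelial markers had a negative log2 fold change, with a median of -2.0, and 13 stood at an unadjusted p under 0.05, against 22.2% of entries. The 2 positive ones were Kdr, a receptor of vascular endothelial growth factor, and Vwf, a blood clotting factor, and of the 14 only Vwf passed, at 1.22 (SE 0.26, edgeR adjusted p = 0.0475). Vwf had 66.2, 54.7 and 31.0 CPM in KO males, against 16.7, 27.5 and 20.8 CPM in WT males. Pecam1, an adhesion molecule of endothelium, had 2.12, 1.88 and 0.630 CPM in KO males, against 1.77, 11.2 and 5.39 CPM in WT males. Without WT male 1 the male medians were -1.84 for epithelial and -2.43 for endothelial markers, and 0 of either list passed. By mean log2 CPM, WT male 1 lay beside the KO males. For epithelial markers it had -1.56, against -1.66, -1.40 and -1.68 in KO males, 0.56 in WT male 2 and -0.77 in WT male 3. For endothelial markers it had 0.69, against 0.66, 0.63 and -0.46 in KO males, 2.36 in WT male 2 and 1.61 in WT male 3. The epithelial list was low, with 10 of its 15 markers tested in males. In females the medians were 0.42 and 0.34, with 6 of 10 and 12 of 14 positive and 0 passing. In males, where most replication and mitosis genes had lower means in KO, the leukocyte sums were thus higher and the epithelial sums lower in KO libraries. The part of these markers in the result was not tested. Some members share exon sequence with a neighbouring gene in the GENCODE annotation, and the counting was not stated to use strand, so their reads cannot be told from those of the neighbour. The shared part was 67.3% of exon bases for Gins2, 29.3% for Kif20a, 22.8% for Ube2c, 17.4% for Ccne2, 12.6% for Mcm7, 12.5% for Ccna2 and 11.1% for Prc1. Pcna, Tyms, Ccnb1 and Ccnb2 have named pseudogenes, so their counts depend on how multiply matched reads were treated.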

How the data were processed

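Each of the 11 libraries came with 1 table of raw whole-number counts, deposited by the authors without normalization. The submitters' processing notes name Trim Galore, STAR and the build GRCm39, without versions. Per the file headers, the alignments counted were sorted by coordinate and stem from 1 pipeline run. How reads were counted (program, strand, annotation, reads with several matches) is not given in the sources used here. Each table held 56980 genes and 1243 repeat subfamilies.

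Symbols, exon lengths and overlaps came from GENCODE vM21 of the older build GRCm38, so no coordinates other than those of the RefSeq promoters (GRCm38.p6) are given. All 44 genes matched, and Lin54, of the further control genes, did not. From these deposited counts, CPM was computed with library sizes scaled by TMM (factors 0.951 to 1.04). A count of 0 allows up to 3 counts, or 0.0624 to 0.110 CPM, which covers counting error only, and no member was that low.

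Tests used edgeR 4.0.16 in R 4.3.3: quasi-likelihood F-tests on genes and repeats together, filterByExpr with a minimum count of 10, and Benjamini-Hochberg adjustment over every entry in the fit. The threshold was 0.05. The contrast of both sexes and that of males and females used additive terms for sex and genotype, which leave 8 residual degrees of freedom. The contrasts within a sex and their difference used a mean for each of the 4 groups, with 7 residual degrees of freedom. All 11 libraries entered each fit and shared 1 estimate of spread. The procedure was tested on simulated counts.

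The members, the further lists, the markers and the tests were chosen with earlier results of these data known. Values in every library are given for Mcm2, Pcna, Ccnb1, Cdk1, Mki67 and Top2a, for the 3 members of each class with the smallest p over both sexes, for the 2 of each class with the smallest p for the difference between the sexes, and for any member called. Values of Mcm5, Cdc6, Cdt1, Ccne1 and Cenpa were added after their values were seen. Alternatives were DESeq2 1.42.0, DESeq2 size factors, genes only, no low-count filter, a replicate block and leaving out each library in turn.

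Libraries of 1 group differed beyond sampling noise (chi-square per degree of freedom 12.0 to 144), so each counts as 1 animal, as the series describes them. Same-numbered KO and WT animals of a sex deviated from their group means with a correlation across entries of -0.145 to 0.0731. This gave no sign that the numbers pair the samples, and with so few animals per group it cannot exclude a pairing.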

Additional observations from a re-analysis of the deposited data

How the results depend on the processing

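No member passed between KO and WT under DESeq2, DESeq2 size factors, genes only, no low-count filter or the replicate block. Over all entries tested, the number called between KO and WT over both sexes was 1, and it was 3 with no filter, 546 with DESeq2 and 1 to 1678 when each library was left out, with the highest value without WT female 1. In males it was 459 (65.1% higher), and it was 284 (55.6% higher) with DESeq2 size factors, 325 (52.9% higher) with genes only, 1079 with no filter, 2129 with DESeq2 and 0 to 2065 with each library left out. In females it was 1, against 6 with DESeq2 and 0 to 3709 with a library left out. For the difference between the sexes it was 0, against 2 with no filter, 227 with DESeq2 and 0 to 2435. Between males and females it was 956, against 602 with genes only, 2845 with DESeq2 and 104 to 3340.

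Members called in females ran from 0 to 14 when each library was left out, those called for the difference between the sexes from 0 to 13, and those called between males and females from 1 to 17, with 4 using all libraries, 15 with no filter and 25 with DESeq2. The male median ran from -0.39 to 0.10 for S phase and from -0.49 to 0.03 for mitosis. The female median ran from -0.027 to 1.02 for S phase and from -0.10 to 0.84 for mitosis. The median of the difference between the sexes ran from -1.20 to -0.12 and from -1.14 to -0.19.

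With the replicate number as a block, 0 entries were called over both sexes, in males and in females, and 0 members. There was no sign that the numbers pair the samples, so this is no measure of a weaker effect. Class medians under the block were 0.12 and 0.00 over both sexes, -0.15 and -0.21 in males and 0.40 and 0.31 in females. Of 1106 values of the 14 members named by rule, none changed sign while called. Few could, since no member was called between KO and WT with all 11 libraries. Without a call, signs did turn when each library was left out. Over both sexes the log2 fold change ran from -0.20 to 0.18 for Mcm2 and from -0.41 to 0.17 for Tyms. It kept its sign for Pcna, E2f1, E2f2, Nusap1, Ube2c and Cdc20. Members had 46 or more counts in each library, and the part of counting error in the spread between animals was not tested.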
